A study of Saccharomyces cerevisiae with 12 samples.

Results

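The comparison of 6 h with 0 h of concanamycin A rests on 6 of the 12 RNA sequencing libraries of the series, the 3 labelled 6 h and the 3 labelled 0 h, chosen by those labels. It covers all 6216 features of the count table, of which 5615 passed the filter on low counts and were tested. Both groups were Saccharomyces cerevisiae of the haploid laboratory strain BY4741 (MATa), which lacks HIS3, LEU2, MET17 and URA3 in whole or in part, and grew exponentially in the rich medium YPD. The 6 h libraries come from cells exposed to 500 nM concanamycin A for 6 h, and the 0 h libraries carry the label of 0 h of the same exposure. The other 6 libraries, 3 at 1 h and 3 at 3 h of the same treatment, shared the estimate of the spread, and those at 3 h also served to ask which levels still differed between 3 and 6 h. A culture held 6 h without the compound was not analysed here, so exposure and time in culture cannot be told apart.

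Concanamycin A is a macrolide that blocks the vacuolar proton pump, the V-ATPase. This pump has a peripheral V1 sector that splits ATP and a membrane Vo sector through which protons enter the vacuole, endosomes and Golgi. The resulting acidity drives amino acids, calcium, zinc and other ions into the vacuole and activates its proteases. Iron supply is tied to it, since the oxidase of high-affinity iron uptake receives its copper in the acidic secretory pathway. Yeast without an active V-ATPase is known for an iron deficiency response. In that response the activators Aft1 and Aft2 turn on iron uptake genes, while messages of iron-using enzymes become scarce.

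The libraries held between 8508894 and 11008709 counts. By edgeR's quasi-likelihood test at an adjusted p under 0.05, 1855 features (33.0%) rose and 1620 (28.9%) fell at 6 h, so 61.9% of all tested features differed. The counts of list members below are to be set beside these shares. By at least 2-fold, 361 rose (6.43%) and 292 fell (5.20%). All 3 libraries at 6 h lay above all 3 at 0 h for 34.2% of tested features and below them for 29.2%. Levels are given as CPM, each count scaled by its library total after that total was adjusted by trimmed means (TMM). They are therefore not plain shares of the library total. Changes are given as log2 fold changes of 6 h over 0 h with their SE. The TMM scaling placed the median log2 fold change of all features at 0.05, whereas total counts placed it at 0.34. With total counts 3278 features (58.4%) rose and 809 (14.4%) fell, 72.8% in all, so that 80.2% of the calls were higher in place of 53.4%. By at least 2-fold 659 (11.7%) rose and 172 (3.06%) fell. Every change below is on the TMM scale unless stated, values in brackets after a gene are log2 fold changes ± SE, and means of CPM are given ± SD over 3 libraries. RNA of whole cultures was measured, so fewer cells with a message and less of it per cell cannot be told apart. For the deleted genes the libraries matched the strain label: LEU2 and URA3 had at most 3 counts in each of the 12 libraries, MET17 had 0, and HIS3, of which the strain keeps a part, had 363 to 488 counts at 6 h and 522 to 782 at 0 h. Of the MATalpha genes, MF(ALPHA)1 and MF(ALPHA)2 had at most 5 counts in each library. STE3 had 78 to 92 counts at 6 h and 32 to 45 at 0 h, and SAG1 205 to 222 and 132 to 193. The MATa gene STE2 had 1496 to 1689 at 6 h and 3025 to 4042 at 0 h.

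The library 0 h replicate C stood apart from the other two at 0 h on the second principal component. In it 111 features were more than 2-fold below the mean of 0 h replicates A and B, and 12 were as far above. Its trehalose and glycogen genes stood a median log2 difference of -1.08 from the other two, its hexose transporters -0.86, its Msn2/4 stress genes -0.81 and its glucose-repressed genes -0.48, while its ribosome biogenesis genes stood 0.23 above. Of the 3475 features called with all libraries, 3206 were called in the same direction without 0 h replicate C, 269 were not called and 0 were called in the opposite direction. A further 380 were called only without it. Then 1760 (31.2%) rose and 1826 (32.4%) fell, 63.6% in all, and by at least 2-fold 325 (5.76%) and 318 (5.64%).

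The 15 largest increases at 6 h included iron uptake genes, sterol and anaerobic wall genes and stress genes, and the 12 largest decreases included iron-sulfur enzymes, phosphate acquisition and amino acid and purine synthesis. PBI1, a putative protein of unknown function that the files describe as induced by ketoconazole, had 997, 733 and 616 CPM at 6 h, against 20.0, 17.8 and 15.7 CPM at 0 h (5.45 ± 0.28, adjusted p = 4.99e-08). The oxysterol-binding protein HES1 had 217, 214 and 225 CPM at 6 h, against 4.33, 6.9 and 5.9 CPM at 0 h (5.28 ± 0.12). At the other end LEU1, the iron-sulfur isopropylmalate isomerase of leucine synthesis, had 77.3, 95.3 and 98.4 CPM at 6 h, against 1575, 1583 and 1554 CPM at 0 h (-4.12 ± 0.09, adjusted p = 1.49e-12). YMR317W (4.04 ± 0.16) and MYG1 (-2.73 ± 0.16), to which the files assign no function, and HO (-2.70 ± 0.46, -2.11 without 0 h replicate C), the endonuclease gene of mating-type switching, were also among the 27. None of the 27 overlapped between 6 h and 0 h, which the rule for choosing them required. Against 3 h 1177 features (21.0%) were higher at 6 h and 1219 (21.7%) lower, 42.7% in all, with 144 (2.56%) higher and 12 (0.214%) lower by at least 2-fold. The 15 risers then had log2 fold changes from 0.37 (STR3) to 3.36 (PBI1), each called higher. Both comparisons use the same 3 libraries at 6 h. Of the decreases, ADE17 (0.10), HIS4 (-0.17) and HO (-0.23) did not pass the test against 3 h.

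**Figure D1:**
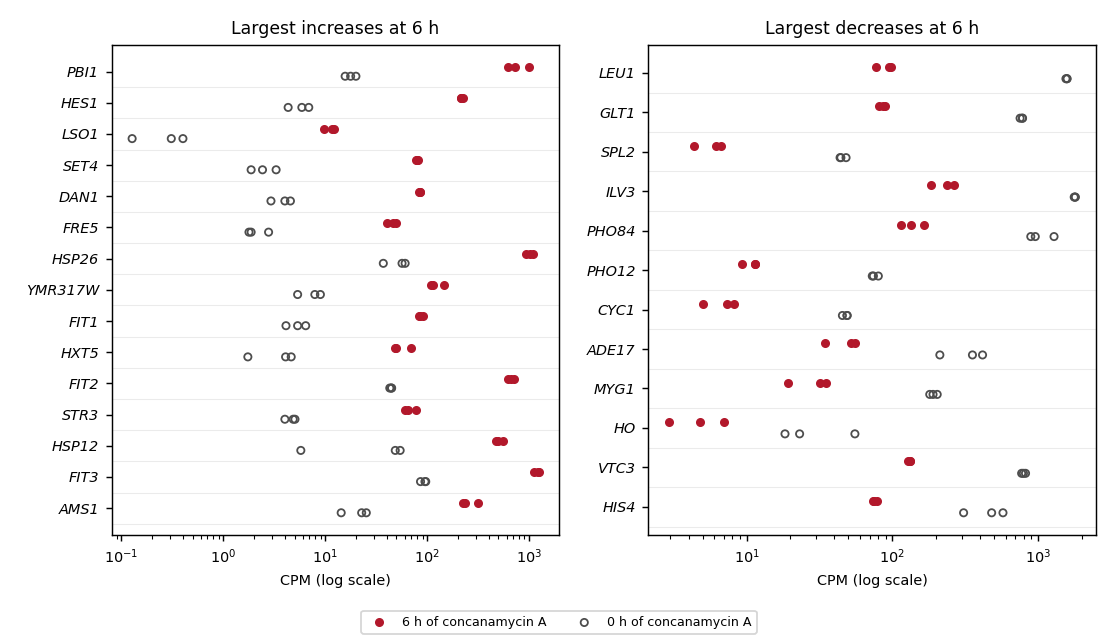
Level in CPM (log scale) of the 15 largest increases and the 12 largest decreases, with 1 point per library, 6 h filled and drawn above 0 h open. The points of the groups stay apart in each gene, and the 0 h points of HSP12 and HO are widely spread, with 0 h replicate C at the low end for HSP12 (5.76 CPM) and at the high end for HO (55.4 CPM).

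All 20 genes of the siderophore and reductive iron uptake lists rose. In the siderophore list, which takes up iron bound to microbial chelators, 7 of 7 genes rose with a median log2 fold change of 2.92. In the reductive list, in which surface reductases feed an oxidase and permease, 13 of 13 rose with a median of 1.03, where all features had a median of 0.05. FIT1, FIT2 and FIT3 are cell wall mannoproteins that retain siderophore iron. Below are the 200 bases that end 101 bases before the start codon of these genes and of LSO1, also a target of Aft1, because they hold the core GCACCC to which Aft1 and Aft2 bind, in capitals where it lies on the gene's strand and as GGGTGC where it lies on the other.
FIT1: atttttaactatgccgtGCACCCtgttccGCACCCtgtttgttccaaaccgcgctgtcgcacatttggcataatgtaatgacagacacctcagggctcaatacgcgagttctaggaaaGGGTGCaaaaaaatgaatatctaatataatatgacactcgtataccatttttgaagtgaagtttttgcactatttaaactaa
FIT2: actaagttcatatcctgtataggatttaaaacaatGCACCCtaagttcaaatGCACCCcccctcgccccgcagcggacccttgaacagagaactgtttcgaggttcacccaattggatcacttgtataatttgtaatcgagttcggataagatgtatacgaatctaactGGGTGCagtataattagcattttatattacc
FIT3: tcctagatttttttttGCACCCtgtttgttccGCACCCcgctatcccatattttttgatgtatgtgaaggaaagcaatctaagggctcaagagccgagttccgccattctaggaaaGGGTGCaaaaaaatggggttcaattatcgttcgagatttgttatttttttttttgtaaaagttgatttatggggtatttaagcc
LSO1: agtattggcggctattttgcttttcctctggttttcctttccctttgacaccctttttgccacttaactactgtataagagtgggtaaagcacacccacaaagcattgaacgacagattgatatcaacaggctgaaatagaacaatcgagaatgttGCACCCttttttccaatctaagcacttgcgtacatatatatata
The stretches run 5′ to 3′ on the gene's strand in build R64, at chrIV:1505001-1505200 (minus) for FIT1, chrXV:1059231-1059430 (plus) for FIT2, chrXV:1061156-1061355 (minus) for FIT3 and chrX:448859-449058 (minus) for LSO1. The searched motif was GCACCC on either strand in the 300 bases before each start codon, and 4.08% of 5765 reading frames held it. It stood before 6 of the 7 siderophore genes (85.7%), 9 of 13 reductive uptake genes (69.2%) and 5 of 14 other iron genes (35.7%). Of the reading frames that rose by at least 2-fold, 36 of 342 (10.5%) held it, and of those that fell as far 11 of 290 (3.79%). The 2 matches farthest from the FIT3 start codon are the same bases as the 2 matches before FRE5, its divergent neighbour, and a match describes the sequence, not a bound factor.

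FIT1 (YDR534C, chromosome IV, 1503314 to 1504900, minus strand) had 90.0, 83.6 and 85.1 CPM at 6 h, against 4.12, 5.36 and 6.44 CPM at 0 h, a change of 4.04 ± 0.12, adjusted p = 2.47e-11. FIT2 (YOR382W, chromosome XV, 1059531 to 1059992, plus strand) had 621, 707 and 659 CPM at 6 h, against 43, 44.8 and 44.5 CPM at 0 h (3.91 ± 0.07, adjusted p = 2.42e-13). FIT3 (YOR383C, chromosome XV, 1060441 to 1061055, minus strand) had 1241, 1219 and 1116 CPM at 6 h, against 95.1, 96.8 and 86.1 CPM at 0 h (3.68 ± 0.07, adjusted p = 7.62e-13). In all of them the lowest library at 6 h was many times above the highest at 0 h. At 1 h FIT1 averaged 3.52 ± 0.671 CPM and FIT2 50.4 ± 2.26 CPM, near their levels at 0 h. Each of the 3 was higher at 6 h than at 3 h (2.05 for FIT1, 0.83 for FIT2 and 1.53 for FIT3).

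The siderophore transporters differed among themselves. ARN2 had 468, 412 and 395 CPM at 6 h, against 56, 61 and 51.2 CPM at 0 h (2.92 ± 0.08), and ARN1 averaged 252 ± 6.93 CPM at 6 h and 43.5 ± 3.8 CPM at 0 h (2.53 ± 0.07). SIT1, a transporter of ferrioxamine, averaged 341 ± 34.3 CPM at 6 h and 46.9 ± 14.5 CPM at 0 h (2.86 ± 0.17). ENB1, the enterobactin transporter, changed least of the 7, with 304, 277 and 256 CPM at 6 h, against 172, 169 and 114 CPM at 0 h (0.88 ± 0.14, adjusted p = 0.000136). ARN1 and ARN2 were higher at 6 h than at 3 h (0.19 and 1.39), while SIT1 (0.31) and ENB1 (0.08) did not pass that test.

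In the reductive system the permease FTR1 had 759.6, 842 and 855 CPM at 6 h, against 145, 148 and 181 CPM at 0 h (2.37 ± 0.08, adjusted p = 4.52e-11). Its partner, the multicopper oxidase FET3, had 1299, 1358 and 1349 CPM at 6 h, against 606, 615 and 683 CPM at 0 h (1.07 ± 0.05, adjusted p = 6.35e-10). The groups did not overlap for either gene, and against 3 h neither was called (0.12 for FTR1 and -0.11 for FET3). FRE5, a putative ferric reductase, had the largest change of the list, with 46.4, 40.4 and 49.5 CPM at 6 h, against 2.78, 1.79 and 1.88 CPM at 0 h (4.36 ± 0.19). CCC2, the Golgi copper pump that loads FET3, rose by 1.61 ± 0.08, and ATX1, the chaperone that hands it copper, by 1.03 ± 0.20. The vacuolar pair FET5 (0.86 ± 0.05) and FTH1 (0.97 ± 0.07) and the vacuolar reductase FRE6 (0.94 ± 0.06) rose as well. FET4, the low-affinity transporter, had the smallest change, at 0.21 ± 0.05.

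Of the 13 tested genes for iron sparing, storage and distribution, 7 rose and 4 fell (median 0.51; 1 further gene was below the filter). LSO1 (YJR005C-A, chromosome X, 448477 to 448758, minus strand) had 9.68, 12.2 and 11.7 CPM at 6 h, against 0.309, 0.128 and 0.402 CPM at 0 h (5.26 ± 0.34, adjusted p = 1.69e-08), on few counts at 0 h. TIS11, which marks messages of iron-using proteins for decay and is also called CTH2, had 201, 208 and 174 CPM at 6 h, against 24.6, 24.9 and 16.4 CPM at 0 h (3.14 ± 0.13, adjusted p = 7.86e-10). The heme oxygenase HMX1 averaged 145 ± 23.9 CPM at 6 h and 17.4 ± 3.99 CPM at 0 h (3.04 ± 0.20). MRS4, which brings iron into mitochondria, rose by 1.06 ± 0.09 and SMF3, which moves it out of the vacuole, by 0.97 ± 0.06. CCC1, which moves iron into the vacuole, fell, with 18, 17.2 and 14.8 CPM at 6 h, against 35.4, 36.4 and 32.8 CPM at 0 h (-1.06 ± 0.09, adjusted p = 3.24e-07). GRX4, a glutaredoxin of iron sensing, fell with 15.2, 14.8 and 13.1 CPM at 6 h, against 32.2, 32.9 and 35.8 CPM at 0 h (-1.22 ± 0.09), and its paralog GRX3 by 0.29 ± 0.06, although with total counts GRX3 stood at 0.01.

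All 12 genes of the iron-sulfur enzyme list fell, with a median of -1.70. GLT1, the glutamate synthase, had 89.6, 81.5 and 86.3 CPM at 6 h, against 783, 753 and 780.0 CPM at 0 h (-3.17 ± 0.07, adjusted p = 7.62e-13). ILV3, the dihydroxyacid dehydratase of isoleucine and valine synthesis, had 183, 239 and 265 CPM at 6 h, against 1771, 1795 and 1802 CPM at 0 h (-2.97 ± 0.11, adjusted p = 4.33e-10). The biotin synthase BIO2 averaged 21 ± 0.721 CPM at 6 h and 90.2 ± 1.06 CPM at 0 h (-2.11 ± 0.09). RLI1, an essential iron-sulfur protein of ribosome recycling, averaged 99.4 ± 14.9 CPM at 6 h and 360.2 ± 31.2 CPM at 0 h (-1.86 ± 0.12). The mitochondrial aconitase ACO1 had 217, 236 and 272 CPM at 6 h, against 669, 652 and 668 CPM at 0 h (-1.46 ± 0.07, adjusted p = 1.39e-09). Unlike the rest of the list it was higher at 6 h than at 3 h (0.80), with means of 313 ± 3.07 CPM at 1 h and 138 ± 8.23 CPM at 3 h. The groups stayed apart in each of the 12 but RIP1, the Rieske protein of complex III, with 43.6, 48.5 and 45.3 CPM at 6 h, against 71.4, 64 and 46.9 CPM at 0 h. RIP1 (-0.41 ± 0.12) and the sulfite reductase MET5 (-0.40 ± 0.07) changed least, and with total counts those 2 did not pass the test, at -0.12 and -0.11.

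Of 23 genes that build the clusters 7 rose (30.4%) and 8 fell (34.8%), with a median of 0.00. The shares over all tested features were 33.0% and 28.9%. The ferredoxin YAH1 (-1.15 ± 0.13), the monothiol glutaredoxin GRX5 (-0.86 ± 0.06) and the mitochondrial exchange factor MGE1 (-0.90 ± 0.05) were lower, and ISD11, partner of the cysteine desulfurase, higher (0.75 ± 0.08). With total counts 13 of the 23 rose, without 0 h replicate B 4 did, and in the fit to the 6 libraries alone 3 did. In heme synthesis 6 of 8 genes fell and 2 rose (median -0.39), led by the ferrochelatase HEM15, with 65.4, 68.4 and 73.3 CPM at 6 h, against 154, 168 and 147 CPM at 0 h (-1.18 ± 0.08, adjusted p = 2.61e-08). With total counts only HEM15 and HEM4 of these 6 fell, at -0.88 and -0.39.

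**Figure D2:**
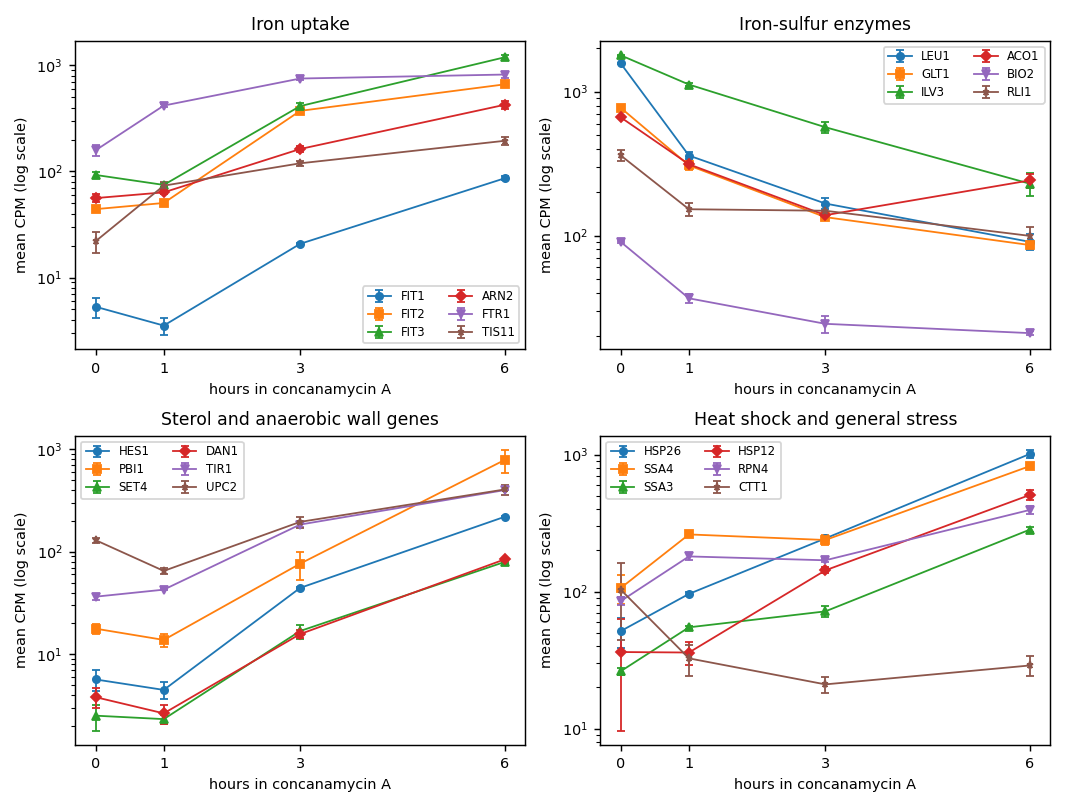
Mean level in CPM (log scale) at 0, 1, 3 and 6 h with the SD over 3 libraries, for 6 genes each of iron uptake, iron-sulfur enzymes, sterol and anaerobic wall genes, and stress genes. FIT1, HES1, SET4 and DAN1 stay near their 0 h level at 1 h and lie higher at each later time, LEU1 and GLT1 lie lower at each later time, and ACO1 is lowest at 3 h; CTT1 alone in the stress panel lies below its 0 h mean at 6 h.

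The branched-chain list, which shares LEU1 and ILV3 with the iron-sulfur enzymes, had 11 of 12 genes lower and a median of -1.45. OAC1, the mitochondrial exporter of isopropylmalate, fell by 2.01 ± 0.09, LEU9 and LEU4, the isopropylmalate synthases, by 1.88 ± 0.09 and 1.55 ± 0.12, and the aminotransferase BAT1 by 1.84 ± 0.06. LEU3, the activator of this pathway, did not pass the test, with 60.8, 65.3 and 68.6 CPM at 6 h, against 55.7, 55.6 and 63.4 CPM at 0 h (0.16 ± 0.07). In glutamate and glutamine synthesis GDH1 (-1.24 ± 0.06) and GLN1 (-0.97 ± 0.11) fell with GLT1. GDH3, the isoform used on poor carbon sources, rose, with 36.9, 36.2 and 33.1 CPM at 6 h, against 12.4, 12.6 and 12.2 CPM at 0 h (1.51 ± 0.09, adjusted p = 6.03e-09). In lysine synthesis 6 of 9 fell and 2 rose (1 without 0 h replicate B, and 0 in the fit to the 6 libraries alone). The homoaconitase LYS4 (-1.53 ± 0.09) and the homocitrate synthase LYS20 (-1.32 ± 0.09) fell most. LYS20 is a near-identical copy of LYS21 (-0.22 ± 0.05), with which it can share reads and which stood at 0.08 with total counts.

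All 6 genes of histidine synthesis fell (median -0.88). HIS4, which catalyses several of its steps, had 78.1, 74.2 and 74.6 CPM at 6 h, against 575, 480.4 and 308 CPM at 0 h (-2.59 ± 0.18, adjusted p = 3.47e-07). HIS1, its entry enzyme, had 92.9, 112 and 104 CPM at 6 h, against 427, 420.3 and 439.6 CPM at 0 h (-2.06 ± 0.06, adjusted p = 2.47e-11). In purine synthesis 9 of 10 fell (median -1.10). ADE17, which closes the purine ring, had 55.2, 52.3 and 34.3 CPM at 6 h, against 416, 355 and 212 CPM at 0 h (-2.79 ± 0.26, adjusted p = 6.43e-06). Its paralog ADE16 did not pass the test (0.13 ± 0.07). For glycine and serine metabolism, which feeds purines with carbon units, 8 of 13 genes fell and 2 rose (median -0.51). The cytosolic hydroxymethyltransferase SHM2 (-1.58 ± 0.07) and the dehydrogenase MTD1 (-1.75 ± 0.27) fell most. In arginine metabolism the arginase CAR1 rose, with 248, 278 and 269 CPM at 6 h, against 103, 100.2 and 106 CPM at 0 h (1.36 ± 0.05, adjusted p = 1.71e-10), and ARG4 fell (-1.10 ± 0.16). Among 11 such genes 4 rose (36.4%) and 3 fell (27.3%), near the 33.0% and 28.9% of all tested features, and without 0 h replicate C 5 fell. The aromatic aminotransferase ARO9 (1.73 ± 0.07) and the decarboxylase ARO10 (2.5 ± 0.06), both under the activator Aro80, rose, and ARO80 itself did not pass the test (0.05 ± 0.11).

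Genes for poor nitrogen sources, which are repressed while glutamine is plentiful, rose in 11 of 20 cases and fell in 2 (median 0.42, and 0.47 without 0 h replicate C). DAL80, a repressor within this set, had 2.02, 2.36 and 1.73 CPM at 6 h, against 0.309, 0.639 and 0.536 CPM at 0 h (2.05 ± 0.60, adjusted p = 0.00898). The proline oxidase PUT1 averaged 49.6 ± 4.6 CPM at 6 h and 13.1 ± 2.2 CPM at 0 h (1.92 ± 0.13) and the urea transporter DUR3 28.2 ± 1.1 CPM at 6 h and 7.85 ± 1.86 CPM at 0 h (1.84 ± 0.14). The ammonium permease MEP3 fell, with 21.3, 26.4 and 26.7 CPM at 6 h, against 34.5, 35.1 and 38.6 CPM at 0 h (-0.54 ± 0.11), but did not pass the test with total counts (-0.24). In the retrograde list 3 of 9 genes rose and 3 fell (33.3% each), near the 33.0% and 28.9% of all tested features. CIT2, the peroxisomal citrate synthase by which that pathway is usually read, did not pass the test, with 339.5, 418 and 443 CPM at 6 h, against 281, 343 and 519 CPM at 0 h.

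In the sulfur list 15 of 27 genes rose and 9 fell, with a median of 0.39. The sulfate permeases SUL1 (2.25 ± 0.27) and SUL2 (2.25 ± 0.12), the methionine permease MUP1 (2.07 ± 0.20) and the regulator MET32 (2.35 ± 0.31) rose. STR3, a cystathionine beta-lyase, had 77.4, 64.6 and 60.1 CPM at 6 h, against 5.05, 4.85 and 4.02 CPM at 0 h (3.85 ± 0.15, adjusted p = 1.57e-10). MET2, the homoserine acetyltransferase, had 49.7, 42.3 and 39.3 CPM at 6 h, against 5.26, 3.7 and 5.76 CPM at 0 h (3.15 ± 0.14, adjusted p = 4.52e-10). The groups did not overlap in either gene, and against 3 h STR3 was called (0.37) while MET2 was not (-0.05). The methionine synthase MET6 fell by 0.58 ± 0.07 and HOM2 by 1.07 ± 0.08. Of the S-adenosylmethionine synthetases SAM1 fell by 0.93 ± 0.05 and SAM2 rose (0.66 ± 0.05). Of the sulfite reductase subunits MET5 fell by 0.40 ± 0.07 and MET10 rose (0.75 ± 0.07).

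In ergosterol synthesis 19 of 25 rose and 1 fell, with a median of 0.51, and in sterol regulation, uptake and storage 11 of 16 rose and 2 fell (4 without 0 h replicate C, 1 without 0 h replicate A or 6 h replicate A), with a median of 0.58. ERG28, a scaffold of the demethylating complex, had 170.2, 161 and 163 CPM at 6 h, against 52, 46.5 and 45.6 CPM at 0 h (1.78 ± 0.06, adjusted p = 5.67e-11). The desaturases ERG3 (1.56 ± 0.06) and ERG5 (1.56 ± 0.13) followed. ERG11, the lanosterol demethylase, did not pass the test, with 791, 886 and 953 CPM at 6 h, against 858, 900.2 and 973 CPM at 0 h. ERG7, the lanosterol synthase, fell (-0.65 ± 0.08). UPC2, the activator that senses ergosterol, had 456, 390.3 and 364 CPM at 6 h, against 124, 138 and 126 CPM at 0 h (1.64 ± 0.10, adjusted p = 1.38e-08). Its paralog ECM22 fell (-0.28 ± 0.06), though it stood at 0.02 with total counts. AUS1, a sterol importer used without oxygen, rose, with 132, 121 and 127 CPM at 6 h, against 46.5, 42.8 and 48.5 CPM at 0 h (1.46 ± 0.07, adjusted p = 9.86e-10). PRY1, a secreted protein that binds sterols, rose by 2.17 ± 0.09.

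Wall mannoproteins of anaerobic cells rose in 6 of 7 cases with a median of 2.48, while of 6 mannoproteins of aerobic cells 3 fell and 1 rose with a median of -0.41 (2 rose without 0 h replicate A, and 0 without any of the other 5 libraries). DAN1 (YJR150C, chromosome X, 708811 to 709707, minus strand) had 85.9, 82.7 and 84.1 CPM at 6 h, against 4.02, 2.94 and 4.56 CPM at 0 h (4.45 ± 0.13, adjusted p = 2.25e-11). TIR1 had 399, 394 and 399.6 CPM at 6 h, against 34.6, 35.6 and 39.1 CPM at 0 h (3.45 ± 0.06, adjusted p = 2.42e-13), and TIR3 averaged 57.1 ± 1.18 CPM at 6 h and 10.3 ± 1.18 CPM at 0 h (2.48 ± 0.10). The 6 h and 0 h libraries did not overlap in any of the 3. PAU24 (3.02 ± 0.20) has near-identical PAU copies, so its value is uncertain, and TIR4 (0.21 ± 0.14) did not pass the test. Of the aerobic proteins CWP2 (-0.87 ± 0.05) and CCW12 (-0.71 ± 0.04) fell. The stretch below, chrX:709808-710007 (minus strand, build R64), is the same 200-base window before the start codon of DAN1, shown for the core TCGTATA of the element bound by Upc2 and Ecm22, which lies here on the other strand and reads TATACGA in capitals.
DAN1: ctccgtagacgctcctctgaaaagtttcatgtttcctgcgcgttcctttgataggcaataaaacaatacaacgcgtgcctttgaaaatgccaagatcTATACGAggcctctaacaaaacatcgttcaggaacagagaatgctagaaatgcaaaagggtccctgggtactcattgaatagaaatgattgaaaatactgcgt
Searched on either strand of the 300 bases before the start codon, TCGTATA was held by 4.60% of 5765 reading frames, by 3 of 7 anaerobic mannoprotein genes (42.9%), 5 of 25 ergosterol genes (20.0%) and 0 of 16 genes of sterol regulation. Of the reading frames that rose by at least 2-fold 9.36% held it, and of those that fell as far 3.79%.

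SET4, a SET-domain protein of unknown function, had 77, 81.5 and 79.9 CPM at 6 h, against 3.3, 2.43 and 1.88 CPM at 0 h (4.93 ± 0.15, adjusted p = 2.47e-11), with no overlap. Of the 16 hypoxic genes, which include SET4 and PBI1, 8 rose and 5 fell (median 0.18), or 5 rose in the fit to the 6 libraries alone. OLE1, the fatty acid desaturase, had 4624, 4032 and 4191 CPM at 6 h, against 1702, 1818 and 1457 CPM at 0 h (1.37 ± 0.07, adjusted p = 3.47e-09). Its activator MGA2 rose by 1.18 ± 0.05. Of 21 fatty acid and phospholipid genes, OLE1 among them, 8 rose and 11 fell (median -0.13). With total counts 11 rose and 4 fell (median 0.17), and without 6 h replicate C 7 fell. INO1, the inositol phosphate synthase that starts inositol lipid synthesis, had 84.7, 74.6 and 74.3 CPM at 6 h, against 8.66, 9.96 and 9.65 CPM at 0 h (3.05 ± 0.09, adjusted p = 1.49e-11). The elongase ELO1 fell (-0.99 ± 0.06). The cytochrome c genes moved apart. CYC1, the aerobic isoform, had 5.04, 8.22 and 7.36 CPM at 6 h, against 45.5, 49 and 48.8 CPM at 0 h (-2.80 ± 0.13, adjusted p = 7.18e-10). CYC7, the hypoxic isoform, had 19.8, 18.8 and 15.5 CPM at 6 h, against 11.3, 9.58 and 2.01 CPM at 0 h (1.20 ± 0.37, adjusted p = 0.0148), 0.74 without 0 h replicate C.

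**Figure D3:**
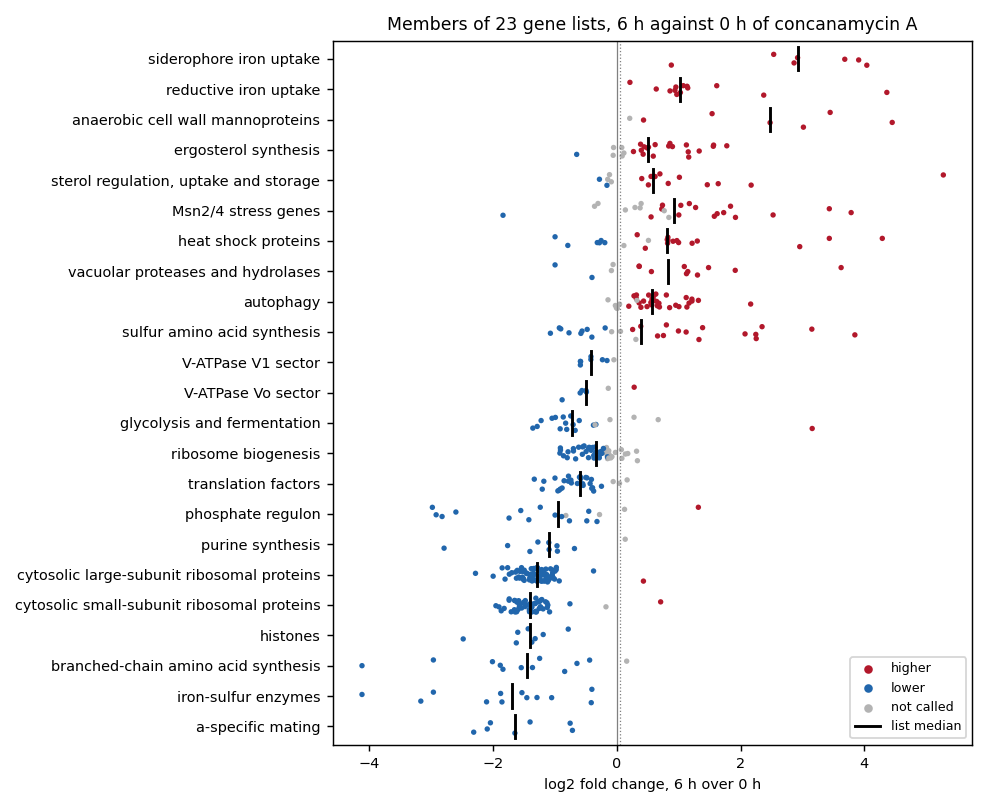
Log2 fold change of 6 h over 0 h for each tested member of 23 gene lists, coloured by call, with the list median as a bar and the median of all features (0.05) as a dotted line. The siderophore and anaerobic mannoprotein lists have the highest medians (2.92 and 2.48) and the iron-sulfur and a-specific lists the lowest (-1.70 and -1.65) of those drawn.

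Heat shock genes were higher in 14 of 22 cases and lower in 6, with a median of 0.82, and with total counts 16 were higher and 2 lower. HSP26, a small heat shock protein, had 1079.9, 1013 and 941 CPM at 6 h, against 56.7, 60.8 and 37.1 CPM at 0 h (4.29 ± 0.15, adjusted p = 2.84e-10). SSA3 and SSA4 are Hsp70 genes induced by stress. SSA3 averaged 284 ± 10.4 CPM at 6 h and 26.3 ± 1.47 CPM at 0 h (3.43 ± 0.07), and SSA4 averaged 825 ± 23.5 CPM at 6 h and 106 ± 24.9 CPM at 0 h (2.96 ± 0.13). HSP104, the disaggregase, rose by 1.0 ± 0.07 and the inducible Hsp90 gene HSP82 by 1.22 ± 0.08. The constitutive partners SSA2 (-1.0 ± 0.05) and HSC82 (-0.79 ± 0.05) fell. HSP60 (-0.25), HSP10 (-0.28), SSE1 (-0.32) and YDJ1 (-0.20) were also lower, and SSA1 was higher (0.81). In protein folding of the endoplasmic reticulum 9 of 15 genes rose and 1 fell, by small amounts (median 0.21), with the oxidase ERO1 (0.77 ± 0.05) and the chaperone KAR2 (0.33 ± 0.06) among the risers.

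RPN4, the activator of proteasome genes, had 426, 379.9 and 379 CPM at 6 h, against 87.3, 89.4 and 79.2 CPM at 0 h (2.21 ± 0.07, adjusted p = 2.47e-11). Of the 34 genes of the proteasome list 16 fell, and 2, RPN4 and the assembly chaperone TMA17 (1.31 ± 0.24), rose. The median of that list was -0.14, and its direction depends on the scale: with total counts 17 rose and 1 fell, and without 0 h replicate C 26 fell. Among oxidative stress genes 13 of 22 rose and 6 fell (median 0.35), and with total counts 16 rose and 2 fell. OYE3, an NADPH oxidoreductase, had 23.8, 22.3 and 21.3 CPM at 6 h, against 2.47, 3.96 and 2.55 CPM at 0 h (2.91 ± 0.19, adjusted p = 1.58e-08). The peroxiredoxin TSA2 (1.92 ± 0.23) and the sulfiredoxin SRX1 (2.10 ± 0.11) rose. The cytosolic catalase CTT1 fell, with 33.4, 29.5 and 23.9 CPM at 6 h, against 141, 134 and 35.3 CPM at 0 h (-1.84 ± 0.44, adjusted p = 0.00514), where 0 h replicate C lay nearest the 6 h libraries. Of 13 pleiotropic drug resistance genes 5 rose (38.5%) and 3 fell (23.1%), near the 33.0% and 28.9% of all tested features. The median was -0.03, and with total counts 8 rose and 1 fell. The acyltransferase ICT1 (1.69 ± 0.08) was higher and the exporter PDR5 lower (-0.63 ± 0.06).

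General stress genes under Msn2 and Msn4 rose in 15 of 24 cases and fell in 1, with a median of 0.92. HSP12, a membrane-associated small heat shock protein, had 558, 492 and 473 CPM at 6 h, against 54.3, 48.7 and 5.76 CPM at 0 h (3.79 ± 0.53, adjusted p = 0.00022), and stood at 3.26 without 0 h replicate C, the lowest of the 3 at 0 h. YGP1, a secreted glycoprotein of nutrient limitation, had 195, 158 and 160.5 CPM at 6 h, against 31.2, 33.6 and 24.1 CPM at 0 h (2.53 ± 0.11, adjusted p = 3.57e-10). The wall protein SPI1 averaged 244 ± 10.5 CPM at 6 h and 64.9 ± 9.24 CPM at 0 h (1.92 ± 0.09). Without 0 h replicate C the list had 15 higher, 2 lower and a median of 0.61. The stress element core AGGGG, searched on either strand of the same 300 bases, was held by 17 of 24 of these genes (70.8%), 22.4% of all reading frames and 31.0% of those that rose by at least 2-fold.

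The reserve carbohydrate and glucose-repressed lists gave other counts without 0 h replicate C. In trehalose and glycogen metabolism 5 of 18 rose and 3 fell with all libraries (median -0.14), and 4 rose and 9 fell without it (median -0.48). Without 6 h replicate A 3 rose, and 1 fell without 0 h replicate A, 0 h replicate B, 6 h replicate B or 6 h replicate C. The neutral trehalase NTH1 (0.97 ± 0.10) and the acid trehalase ATH1 (1.13 ± 0.13) rose, with 0.81 and 0.94 without that library, and with total counts 8 of the 18 rose and 2 fell. GSY1, the glycogen synthase, had 155, 81.1 and 73.8 CPM at 6 h, against 616, 543 and 102 CPM at 0 h, with 0 h replicate C inside the range at 6 h. In the glucose-repressed list 10 of 22 rose and 12 did not pass the test with all libraries, and 7 rose and 2 fell without it. With total counts 16 rose, and with the filter of 10 CPM in 3 libraries 5 did. HXT5, a hexose transporter of slow growth, had 69.2, 48.9 and 50.0 CPM at 6 h, against 4.64, 4.09 and 1.74 CPM at 0 h (3.97 ± 0.25, adjusted p = 3.26e-08, 3.63 without that library). HXT4 (-1.68 ± 0.30) and HXT6 (-2.51, and -3.07 without 0 h replicate C) fell. HXT7, a copy of HXT6 with which it can share reads, did not pass the test, with 31.6, 13.5 and 10.7 CPM at 6 h, against 125, 89.9 and 8.18 CPM at 0 h.

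**Figure D4:**
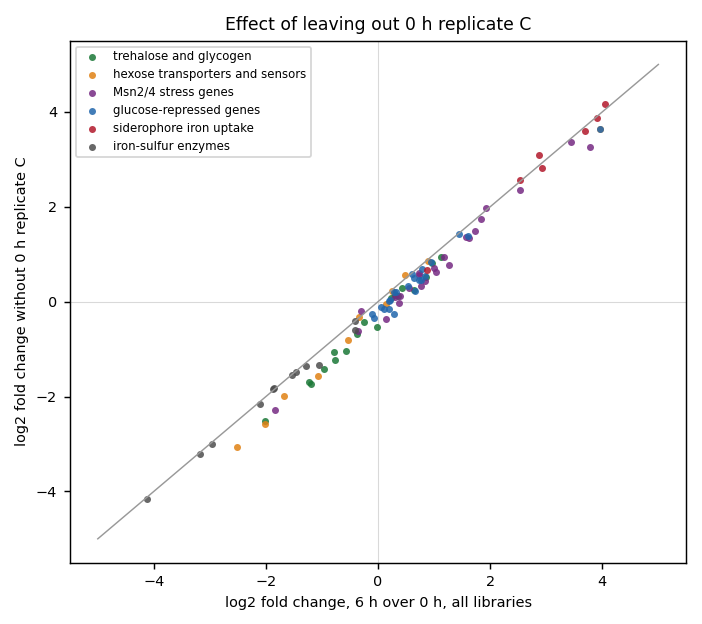
Log2 fold change of 6 h over 0 h without 0 h replicate C (vertical) against that with all libraries (horizontal) for the members of 6 lists, with the line of equal values. The trehalose, glucose-repressed, hexose transporter and Msn2/4 genes lie mostly below the line, whereas the siderophore and iron-sulfur genes lie on or near it.

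Vacuolar hydrolase genes mostly rose. Of 14 genes for vacuolar proteases and hydrolases 10 rose and 2 fell, with a median of 0.82 (0.56 without 0 h replicate C). PRB1, proteinase B, had 1867, 1769 and 1694 CPM at 6 h, against 515, 494 and 405 CPM at 0 h (1.91 ± 0.09, adjusted p = 1.12e-09). PEP4, proteinase A, which activates the other proteases, had 989, 910.3 and 934 CPM at 6 h, against 474, 449 and 356 CPM at 0 h (1.15 ± 0.09, adjusted p = 1.55e-07). AMS1, the alpha-mannosidase, had 313, 236 and 226 CPM at 6 h, against 22.8, 25.3 and 14.3 CPM at 0 h (3.62 ± 0.19, adjusted p = 1.81e-08). PHO8, the vacuolar alkaline phosphatase, fell, with 224, 217 and 232 CPM at 6 h, against 433, 451 and 461 CPM at 0 h (-1.0 ± 0.05, adjusted p = 7.18e-10). None of these overlapped between 6 h and 0 h.

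Of 37 autophagy genes 31 rose and 6 did not pass the test (median 0.57). Without 0 h replicate C 24 rose and 1 fell (median 0.43). The receptor of nuclear and endoplasmic reticulum autophagy ATG39 had 16.3, 12.9 and 12.1 CPM at 6 h, against 4.85, 2.55 and 1.47 CPM at 0 h (2.16 ± 0.33, adjusted p = 9.93e-05). The mitophagy receptor ATG32 (1.21 ± 0.09), the vacuolar amino acid exporter ATG22 (1.32 ± 0.09), the kinase ATG1 (1.0 ± 0.12) and the ubiquitin-like ATG8 (0.95 ± 0.17) were among the risers. Of 41 vacuolar protein sorting genes 19 rose and 3 fell, with a small median of 0.18. With total counts 35 rose, and without 0 h replicate C 5 fell. Of 11 tested vacuolar amino acid transporters 2 rose and 3 fell (median 0.02, 1 fell without 6 h replicate B), but with total counts 6 rose and 1 fell. YPQ1, a lysine and arginine transporter, fell most (-0.88 ± 0.11).

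The subunits of the pump itself were slightly lower. In the V1 sector 7 of 8 genes fell (median -0.42), and in the Vo sector 5 of 7 fell and 1 rose (median -0.50). VMA1, the catalytic subunit, had 1778, 1646 and 1627 CPM at 6 h, against 2190.5, 2251 and 2317 CPM at 0 h (-0.42 ± 0.06, adjusted p = 2.31e-05). VMA5 (-0.59 ± 0.05), VMA7 (-0.59 ± 0.06) and VMA8 (-0.59 ± 0.05) fell most in V1. Of the Vo genes, the proteolipid VMA16 had 125, 116 and 116 CPM at 6 h, against 209.6, 208 and 241 CPM at 0 h (-0.88 ± 0.06, adjusted p = 4.56e-08). STV1, the Golgi form of the large Vo subunit, rose, with 111, 105 and 109 CPM at 6 h, against 89.9, 89.9 and 88.1 CPM at 0 h (0.28 ± 0.06, adjusted p = 0.00101). Its vacuolar counterpart VPH1 fell, with 689, 615 and 634 CPM at 6 h, against 969, 943 and 954 CPM at 0 h (-0.56 ± 0.05, adjusted p = 2.96e-07). The V1 direction depends on the scale, since with total counts 4 fell and 2 rose, VMA13 (0.14) among them, and VMA1 did not pass the test (-0.12). Of 10 assembly and RAVE genes 5 fell and 1 rose (3 and 4 with total counts; 0 rose without 0 h replicate C or 6 h replicate A), with the assembly factor VMA22 at -0.67 ± 0.09 and the RAVE subunit RAV1 at -0.02 ± 0.08, not called.

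Genes of proton export and ion homeostasis changed in parts, while over all tested features 33.0% rose and 28.9% fell. PMA1, the plasma membrane proton pump, had 6533, 6415 and 6779.9 CPM at 6 h, against 9099, 9164 and 10193 CPM at 0 h (-0.53 ± 0.05, adjusted p = 4.01e-07). Of 13 genes for proton and potassium transport at that membrane 5 fell and 1 rose (median -0.01), but with total counts 1 fell and 7 rose, and without 6 h replicate A 3 fell. The calcium list had 7 of 15 higher and 4 lower (median 0.24), and with total counts 11 higher and 2 lower. PMC1, the vacuolar calcium pump, had 416, 352 and 366 CPM at 6 h, against 208, 203 and 269.9 CPM at 0 h (0.74 ± 0.11, adjusted p = 7.02e-05). CRZ1, the activator that calcineurin controls, had 104, 98.9 and 97 CPM at 6 h, against 155, 168 and 157 CPM at 0 h (-0.68 ± 0.06, adjusted p = 1.99e-07). GSC2, a glucan synthase also called FKS2, which calcineurin and wall stress turn on, had 1340.5, 1076 and 1207 CPM at 6 h, against 258, 244 and 248 CPM at 0 h (2.27 ± 0.09, adjusted p = 2.22e-10). Of 16 wall stress genes 10 rose and 4 fell, among them PST1 (1.52 ± 0.08) and PIR3 (1.84 ± 0.35) as risers.

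Of 18 phosphate genes 14 fell and 1 rose, with a median of -0.95. The phosphate transporter of high affinity is PHO84 (YML123C, chromosome XIII, 24037 to 25800, minus strand). It had 115, 134 and 165 CPM at 6 h, against 892, 957 and 1287 CPM at 0 h (-2.92 ± 0.16, adjusted p = 2.52e-08). SPL2, which lowers low-affinity phosphate transport, had 6.15, 6.68 and 4.33 CPM at 6 h, against 43.8, 48.1 and 44.4 CPM at 0 h (-2.98 ± 0.14, adjusted p = 7.32e-10). VTC3, of the vacuolar polyphosphate polymerase, had 131, 129 and 133 CPM at 6 h, against 794, 772 and 821 CPM at 0 h (-2.60 ± 0.05, adjusted p = 7.62e-13). Groups were apart in each, and all were lower at 6 h than at 3 h (-1.13 for PHO84, -1.72 for SPL2 and -0.72 for VTC3). At 1 h PHO84 averaged 25.7 ± 0.651 CPM and at 3 h 303 ± 23 CPM, so its mean was lowest at 1 h. PHO12, an acid phosphatase with the copy PHO11, fell by 2.83 ± 0.09, and PHM8, a phosphatase of lysophosphatidic acid and nucleotides, rose (1.32 ± 0.13). The E-box CACGTG bound by Pho4, a palindrome, stood before 9 of these 18 genes and 3.64% of all reading frames.

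Of 13 zinc genes 7 fell and 3 rose (median -0.26), and with total counts 5 fell and 5 rose (median 0.04). The zinc transporters ZRT1, with 49.2, 46.3 and 51.1 CPM at 6 h, against 204, 197 and 179 CPM at 0 h (-1.98 ± 0.07, adjusted p = 8.56e-11), and ZRT2 (-1.90 ± 0.10) fell, as did ZRC1, which moves zinc into the vacuole (-1.16 ± 0.05). IZH4, a membrane protein of the zinc and sterol response, rose, with 141, 172 and 193 CPM at 6 h, against 24.4, 23 and 22.3 CPM at 0 h (2.86 ± 0.13, adjusted p = 1.39e-09). For copper, the high-affinity transporter CTR1 fell, with 14.7, 18.6 and 19.3 CPM at 6 h, against 46.8, 43.9 and 47.5 CPM at 0 h (-1.40 ± 0.09, adjusted p = 2.97e-08). The vacuolar exporter CTR2 rose (0.83 ± 0.09), as did the metallothionein CRS5 (1.02 ± 0.16), and of 10 tested copper genes 6 rose and 2 fell.

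Translation genes fell almost throughout. In the cytosolic ribosome 54 of 56 small-subunit genes fell (median -1.40) and 80 of 81 large-subunit genes (median -1.29), and these counts stayed at 54 and 79 with total counts. RPL9A had 323, 351 and 316 CPM at 6 h, against 1510.4, 1560.5 and 1756 CPM at 0 h (-2.29 ± 0.07, adjusted p = 1.81e-11). RPS26B had 300.2, 332 and 329 CPM at 6 h, against 1166, 1232 and 1333 CPM at 0 h (-1.96 ± 0.08, adjusted p = 3.61e-10). Their paralogs RPL9B (-0.38) and RPS26A (-1.09) fell less, and any reads shared within such pairs would make these values uncertain. The exceptions were RPS9A, with 275, 326 and 341 CPM at 6 h, against 175, 176 and 226 CPM at 0 h (0.71 ± 0.10), and RPL15B, with 71.8, 70.3 and 70.5 CPM at 6 h, against 50.3, 57.3 and 50.3 CPM at 0 h (0.43 ± 0.07), which rose. RPS28B (-0.18 ± 0.30) did not pass the test. Against 3 h 17 small-subunit and 29 large-subunit genes were lower, with medians of -0.14 and -0.14. Translation factors fell in 27 of 30 cases (median -0.60), with the elongation factor YEF3 at 6057, 6231 and 6139.8 CPM at 6 h, against 11325, 11883 and 13657 CPM at 0 h (-1.0 ± 0.06, adjusted p = 1.55e-08).

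Factors of ribosome assembly moved less: 33 of 50 fell and 17 did not pass the test, with a median of -0.33. Against 3 h 42 of the 50 were lower (median -0.41). NOP56, a core protein of snoRNA particles, had 499, 502 and 502 CPM at 6 h, against 871, 909.9 and 953 CPM at 0 h (-0.86 ± 0.04, adjusted p = 1.82e-09). With total counts 13 fell and 8 rose, so this direction depends on the scale. The element core GATGAG stood before 47 of the 50 genes (94.0%), 18.8% of all reading frames and 16.6% of those that fell by at least 2-fold. Of 20 genes for RNA polymerases I and III 10 fell and 1 rose (median -0.19), or 6 and 5 with total counts, with RPA190, the largest subunit of polymerase I, at -0.54 ± 0.09. Mitochondrial ribosomal protein genes fell in 49 of 70 cases (median -0.30), but with total counts 15 fell and 14 rose.

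Of 20 genes for glycolysis and fermentation 15 fell and 1 rose, with a median of -0.73. FBA1, the aldolase, had 7091, 7992 and 7680.4 CPM at 6 h, against 19577, 19516 and 19274 CPM at 0 h (-1.36 ± 0.04, adjusted p = 3.69e-11). ENO2, the enolase, had 6512, 7035 and 6906 CPM at 6 h, against 16603, 16841 and 16511 CPM at 0 h (-1.29 ± 0.05, adjusted p = 1.67e-10). PDC6, a minor pyruvate decarboxylase, rose, with 17.4, 19 and 14 CPM at 6 h, against 2.16, 2.43 and 0.938 CPM at 0 h (3.16 ± 0.24, adjusted p = 8.28e-08). In the citric acid cycle 8 of 15 genes fell and 3 rose (median -0.30), but with total counts 5 fell and 5 rose (median -0.01). The 8 held all 4 succinate dehydrogenase genes, with SDH2 at -1.05 ± 0.23 and SDH3 at -1.35 ± 0.07. IDH1, of the NAD-linked isocitrate dehydrogenase, rose, with 428, 411 and 401 CPM at 6 h, against 175, 175 and 177 CPM at 0 h (1.23 ± 0.05, adjusted p = 1.24e-10), and was higher than at 3 h by 1.52 ± 0.05. Of 37 nuclear genes of the respiratory chain and ATP synthase 18 fell and 3 rose (median -0.18), with 11 lower and 14 higher under total counts, and CYC1 and COX4 (-1.08 ± 0.09) fell under both.

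All 8 histone genes fell, with a median of -1.40, led by HTA2, with 41.1, 47 and 41.8 CPM at 6 h, against 236, 243 and 248 CPM at 0 h (-2.48 ± 0.07, adjusted p = 1.89e-11). HHF1 and HHF2 are near-identical, so their reads can be shared. Each histone gene was lower at 6 h than at 3 h as well, with a median of -0.47. All 7 a-specific mating genes fell (median -1.65). AGA2, the agglutinin subunit that binds the partner cell, had 12.6, 15.1 and 15.9 CPM at 6 h, against 76.9, 72.9 and 66.8 CPM at 0 h (-2.31 ± 0.09, adjusted p = 1.47e-10). The pheromone gene MFA2 averaged 53.8 ± 5.31 CPM at 6 h and 222 ± 10.3 CPM at 0 h (-2.04 ± 0.09) and the receptor gene STE2 168 ± 16.1 CPM at 6 h and 444 ± 85.4 CPM at 0 h (-1.40 ± 0.12). Of 20 pheromone response genes 12 fell and 4 rose (median -0.75). The G1 cyclin CLN1 fell, with 25.4, 33 and 35.3 CPM at 6 h, against 83.4, 74.1 and 72.3 CPM at 0 h (-1.30 ± 0.11, adjusted p = 3.64e-07). In the list of cyclins with SIC1 4 of 13 rose and 4 fell (6 and 2 with total counts). These shares, 30.8% each, are near the 33.0% and 28.9% of all tested features. Of 24 genes for DNA replication and nucleotides 5 rose (20.8%) and 7 fell (29.2%), where all tested features had 33.0% and 28.9%. The median was -0.03, and with total counts 12 rose and 3 fell. Without 0 h replicate A, 0 h replicate B or 6 h replicate A 3 rose, and in the fit to the 6 libraries alone 2 did. In this list the ribonucleotide reductase subunits RNR2 (-0.71 ± 0.05) and RNR4 (-1.01 ± 0.04) fell, and HUG1, a small inhibitor of that enzyme, rose (1.11 ± 0.15).

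Non-coding RNA held a larger share of the counts in each 6 h library than in any 0 h library. Features for rRNA, tRNA, snoRNA, snRNA and other non-coding RNAs held 17.7, 14.5 and 13.9 percent of the counts at 6 h, against 10.3, 11.2 and 11.9 percent at 0 h. The 3 libraries at 6 h lay above the 3 at 0 h, a mean of 15.4% ± 2.08 against 11.1% ± 0.799 (SD, n = 3 each), with an exact two-sided permutation p of 0.1, the smallest that 3 against 3 can give. At 1 and 3 h the means were 10.1% and 10.7%. Without 6 h replicate A, the highest, the ratio of 6 h to 0 h was 1.27 in place of 1.38.

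SCR1, which forms the RNA core of the signal recognition particle, made up 7.81, 6.56 and 6.47 percent of the counts at 6 h, against 4.5, 4.76 and 5.51 percent at 0 h. LSR1, the U2 spliceosomal RNA, held 2.3, 1.92 and 1.91 percent of the counts at 6 h, against 1.14, 1.18 and 1.37 percent at 0 h. For both the exact permutation p was 0.1. On the TMM scale the 5 most abundant non-coding RNAs did not pass edgeR's test against 0 h. Its scaling factors were 1.03 to 1.09 at 6 h and 0.84 to 0.88 at 0 h. Levels at 6 h therefore stand lower against 0 h on this scale than as shares of the counts. SCR1 was at 0.20 ± 0.13 (adjusted p = 0.201), LSR1 at 0.43 ± 0.18 (adjusted p = 0.056), and snR17a, snR30 and snR86 at 0.26 ± 0.15, 0.05 ± 0.18 and -0.02 ± 0.16. Against 3 h all 5 were called higher, SCR1 by 0.53 ± 0.13, LSR1 by 0.56 ± 0.18, snR17a by 0.60 ± 0.15, snR30 by 0.72 ± 0.18 and snR86 by 0.47 ± 0.16. Of 74 tested snoRNA and snRNA features 8 rose and 5 fell. That split was 5 and 23 without 6 h replicate A, 12 fell without 0 h replicate A, 5 rose and 2 fell without 0 h replicate B, and 1 fell without 6 h replicate B or 6 h replicate C. With total counts 14 rose and 1 fell. Of 299 tRNA features only 16 passed the filter, and 11 of those rose, 7 without 6 h replicate A and 5 in the fit to the 6 libraries alone. A tRNA scarce at 0 h could pass the filter through its level at later times alone. The count of risers is therefore partly set by the filter and gives no direction for tRNAs as a kind. Levels of the tested tRNAs were low, and tG(GCC)D2, a glycine tRNA, had 5.34, 6.27 and 4.44 CPM at 6 h, against 1.24, 1.02 and 0.536 CPM at 0 h (2.47 ± 0.30, adjusted p = 1.01e-05).

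**Figure D5:**
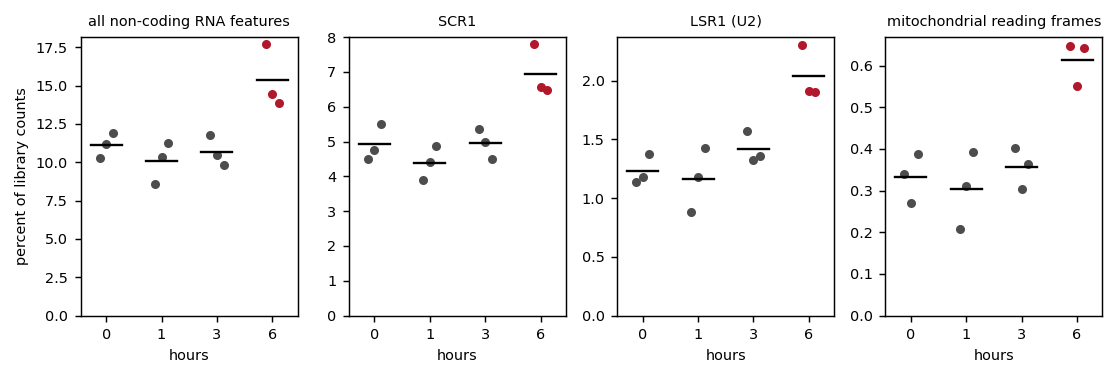
Percent of each library's counts at 0, 1, 3 and 6 h in all non-coding RNA features, SCR1, LSR1 and mitochondrial reading frames, with 1 point per library, the 6 h points in red, and the mean as a bar. In each panel the 3 points at 6 h lie above all points at the earlier times.

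Reading frames of the mitochondrial genome held 0.647, 0.552 and 0.641 percent of the counts at 6 h, against 0.339, 0.271 and 0.389 percent at 0 h. The means were 0.614% ± 0.0532 at 6 h and 0.333% ± 0.0590 at 0 h, with no overlap and an exact permutation p of 0.1. On the TMM scale 10 of 19 tested frames rose and 9 did not pass the test (median 0.62), and COB, for cytochrome b, had 117, 139.9 and 172 CPM at 6 h, against 85, 46.5 and 62.2 CPM at 0 h (1.14 ± 0.31, adjusted p = 0.00965). That count of 10 was 2 without 0 h replicate B, 6 without 0 h replicate C and 5 without 6 h replicate C.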

How the data were processed

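The deposited table holds whole-number read counts per gene for 12 libraries, made by the authors with STAR 2.5.2b and featureCounts 1.5.1 on build R64, per the submitters' processing notes. How strand and reads with several matches were treated is not given in the sources used here. Per the labels' protocols, ribosomal RNA was depleted and the kit marks strand. Nothing in the labels says that replicates were separate cultures, so p-values measure the spread between these libraries, which may be technical.

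From these counts, edgeR 4.0.16 (R 4.3.3) was fitted to all 12 libraries with TMM scaling, its expression filter and robust quasi-likelihood dispersions (8 residual degrees of freedom, biological coefficient of variation 8.68%), and p-values were adjusted by Benjamini-Hochberg over 5615 features at 0.05. Another 601 features, 135 of them at 0 in every library, were not tested, and 3 blank lines were left out. SE is the log2 fold change divided by the root of F. Of the feature IDs, 5922 matched the R64 reference, from which coordinates and promoters were read. Copies of at least 95% identity over 50% of a gene's length were sought with blastn 2.17.0. Values of genes with such a copy are uncertain, also where the text does not say so. Shares were compared with an exact two-sided permutation test (SciPy 1.17.1). Library totals ranged from 8508894 to 11008709 counts.

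The 62 gene lists and the comparisons were chosen with earlier results of these data known. Features named by rule were the 15 largest increases and 12 largest decreases with at least 10 CPM and no overlap, and the 5 largest non-coding RNAs. From the lists the rule took the 4 largest called changes of each and every member of lists of up to 14. The text describes only part of these list members, selected with their values known. Members of longer lists outside these (MEP3, SUL2, MUP1, HOM2, SAM1, SAM2, MET6, MET10, ERG11, ERG7, ECM22, MGA2, CYC7, HSP104, HSP82, SSA1, SSA2, HSC82, HSP60, HSP10, SSE1, YDJ1, KAR2, ATG1, ATG8, PMC1, CRZ1, PHM8, RPS9A, RPS26A, RPL9B, RPL15B, RPS28B and RPA190) were chosen after their values were seen. The fit was also run on simulated counts in which few features changed, with rises and falls equally likely. Such counts lack the broad changes seen here, so they cannot check the choice of scaling. Alternatives were total-count scaling, scaling on nuclear reading frames, DESeq2 1.42.0, other filters, the 6 libraries alone, a replicate block and leaving out each library.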

Additional observations from a re-analysis of the deposited data

How the results depend on the processing

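Scaling by total counts moved the counts of the 6 h against 0 h comparison: the features that rose became 3278 (659 of them by at least 2-fold), those that fell became 809 (172), and 80.2% of the calls were higher. Of 408 features named by the rule 334 kept their call under it, where signs were compared only for features called on the TMM scale. Among the features so called 12 turned their sign: GCV3 (0.0866), PDR3 (0.0792), LYS21 (0.0836), GRX3 (0.0079), DPP1 (0.0396), AVT7 (0.11), DLD3 (0.0091), AVT1 (0.04), ARG7 (0.0668), PKR1 (0.0791), VMA4 (0.0679) and VMA13 (0.14), of which VMA13 was called higher. ECM22, named after its values were seen, also turned (0.015). Under the other settings run (scaling on nuclear reading frames, DESeq2, no filter, 10 CPM in 3 libraries, the 6 libraries alone and each library left out) between 1 and 18 of the named features lost their call, and 0 of those called in the main fit changed sign. Features not called in the main fit were left out of that count, and some did turn, such as PCL1 (-0.10, and 0.32 without 0 h replicate C). Leaving out each library in turn gave 1547 to 1776 features higher and 1492 to 1826 lower against 0 h, 325 to 400 and 286 to 318 by at least 2-fold, and 49.0% to 53.6% of calls higher. Against 3 h the same gave 854 to 1104 higher and 930 to 1100 lower, 109 to 162 and 10 to 13 by at least 2-fold, and 46.7% to 50.1% higher. The ratio of 6 h to 0 h was 1.27 to 1.45 for the non-coding share and 1.32 to 1.5 for the SCR1 share.

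The replicate letters are shared by all times, and the labels do not say whether they pair the libraries. Deviations of same-letter libraries at 6 h and 0 h from their group means had correlations of 0.40 (A), -0.08 (B) and 0.44 (C). For libraries of different letters they ran from -0.48 to 0.38. With 3 libraries a group these values cannot settle the pairing, and the main fit did not use the letters. A fit with the replicate block gave 2039 features higher and 1718 lower against 0 h, and 1402 and 1398 against 3 h. The fit to the 6 libraries alone gives no value against 3 h. With 3 libraries a group, shares cannot reach an exact p below 0.1, and features with few counts at 0 h, such as LSO1, have uncertain levels there.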

Other observations

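Outside the gene lists, further features stood apart between 6 h and 0 h, all chosen after their values were seen. DSE2, a wall glucanase-like protein, had 36.7, 38.9 and 39.7 CPM at 6 h, against 148, 137 and 122 CPM at 0 h (-1.82 ± 0.08, adjusted p = 6.42e-10). The chitinase CTS1 averaged 288 ± 6.94 CPM at 6 h and 782 ± 65.3 CPM at 0 h (-1.44 ± 0.06). DSE1, a daughter cell protein (-1.28 ± 0.06), AMN1, an inhibitor of mitotic exit (-1.23 ± 0.10), and SUN4, a wall protein (-1.10 ± 0.06), fell. The ribosome-bound proteins ASC1 (-1.83 ± 0.06) and STM1 (-1.23 ± 0.05) and the ribosome-associated chaperone SSB1 (-1.44 ± 0.04) also fell. HAP4, the activating subunit of the complex that controls respiration genes, had 102, 79.8 and 68.6 CPM at 6 h, against 362, 344 and 152 CPM at 0 h (-1.78 ± 0.36, adjusted p = 0.0019) and did not differ from 3 h by the test (0.01 ± 0.36).

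Of the features that rose, YSR3, a phosphatase of sphingoid base phosphates, had 251, 207 and 177 CPM at 6 h, against 21.1, 17.1 and 14.5 CPM at 0 h (3.58 ± 0.17, adjusted p = 2.55e-09). FHN1, a relative of the eisosome protein Nce102, rose by 3.05 ± 0.11, the perilipin-like lipid droplet protein PLN1 by 2.0 ± 0.12 and the Mediator subunit ROX3 by 1.81 ± 0.09. The minor transketolase TKL2 averaged 25.7 ± 4.74 CPM at 6 h and 3.15 ± 1.04 CPM at 0 h (2.99 ± 0.21) and NQM1, a transaldolase paralog, 148 ± 30.6 CPM at 6 h and 26.5 ± 14.3 CPM at 0 h (2.46 ± 0.34). VMR1, a transporter of the vacuolar membrane, had 235, 206 and 219 CPM at 6 h, against 84, 67 and 63.4 CPM at 0 h (1.62 ± 0.09, adjusted p = 5.06e-09), and the polyubiquitin gene UBI4 rose by 1.53 ± 0.13. The groups did not overlap in these genes.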
